A study of Bos taurus with 8 samples.

Results

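Oxidative phosphorylation subunit genes encode the proteins of the mitochondrial inner membrane that burn NADH and succinate and make ATP. Complex I takes electrons from NADH and complex II takes them from succinate. Complex III passes them on to cytochrome c, complex IV hands them to oxygen, and ATP synthase uses the resulting proton gradient to make ATP. In blood, resting lymphocytes draw much of their ATP from this pathway, while activated lymphocytes and inflammatory monocytes lean more on glycolysis. The nuclear genes of the 5 complexes were taken by symbol: NDUFA, NDUFB, NDUFC, NDUFS and NDUFV with a number, SDHA to SDHD, UQCR, CYC1, COX4 to COX8, and ATP5. Assembly factors, which build the complexes without staying in them, were left out.

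The annotation table held 87 such genes, and 83 of them had a probe on the array, with 170 of the 43653 noncontrol probes. No probe was matched to COX5A, COX7C, COX8C or UQCRC2, or to any of the 13 mitochondrially encoded subunits, so the core of complexes I, III and IV that is made inside the mitochondrion was not measured. Probes were used if all arrays of some group showed them well above background, which kept 79 genes and 161 probes. These 79 are 36 genes of complex I, 4 of complex II, 8 of complex III, 13 of complex IV and 18 of ATP synthase, out of 15137 genes tested. All 79 were well above background on all 8 arrays at the brightest of their probes, which stands for the gene below. For 31 of the genes 1 probe was used, and for 48 there were 2 or more.

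RNA came from peripheral blood mononuclear cells, the lymphocyte and monocyte fraction of blood, of lame crossbred cows (4 arrays), normal crossbred cows (2 arrays) and normal cows of the Tharparkar breed, an Indian zebu (2 arrays). The labels give neither the age of the cows nor the breeds behind the crossbreds, nor do they tell how many cows stand behind an RNA sample. They state that RNA samples were run as technical duplicates. Pairs of arrays correlated across genes at 0.981 to 0.997 within lame R1, within lame R2, within the normal crossbred arrays and within the Tharparkar arrays, and at 0.931 to 0.970 otherwise. The arrays therefore read as 4 RNA samples, and p-values below measure the spread between arrays of few samples and would be too low for a test between cows. Breed and cow cannot be told apart in the normal groups, nor lameness and cow in the crossbreds.

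Between 52.8% and 61.5% of probes were well above background on 7 of the arrays, and 70.9% on lame R2_2. The median raw signal of negative control spots was 107 on lame R2_2, against 53 to 65 on the others. Values are log2 processed signals from which the 75th percentile of the array was taken off, so a value of 0 is that percentile. Values of different genes rest on different probes and are not ranked against each other. In a bulk sample of mixed cells, fewer cells of a type and less RNA per cell cannot be told apart.

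Lame crossbred cows were set against normal crossbred cows, which is the comparison of lameness within the crossbreds. No subunit gene had an adjusted p under 0.05, the threshold for a call (limma, Benjamini-Hochberg over all genes): 0 of 79, where 9.61% of all genes were called, and 2 of the 79 had an unadjusted p under 0.05. The median log2 difference over the 79 genes was -0.01, against -0.04 over all genes, with 37 genes above 0 and 42 below. All 4 lame arrays lay above both normal crossbred arrays for 4 genes, where 15.7% of all genes did so, and below them for 5, where 23.1% did. The span ran from -0.59 for NDUFB4, an accessory subunit of complex I, to 0.81 for ATP5PB, a stalk subunit of ATP synthase.

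The genes furthest from 0 in this comparison did not pass the test. ATP5PB measured 3.66, 3.62, 3.21 and 2.82 on the lame arrays R1_1, R1_2, R2_1 and R2_2, against 2.55 and 2.49 on the normal crossbred arrays. Its log2 difference was 0.81 (SE 0.25, adjusted p = 0.0917, limma), although the arrays did not overlap. The other ATP5PB probe gave 0.11. SDHB, the iron-sulfur subunit of succinate dehydrogenase, measured 1.86, 1.74, 1.62 and 1.49 on the lame arrays, against 1.10 and 1.23 on the normal crossbred arrays. Here too every lame array was the higher, with a log2 difference of 0.51 (SE 0.15, adjusted p = 0.0857). COX8B, the complex IV subunit known from heart and skeletal muscle, had a log2 difference of 0.61 (SE 0.27, adjusted p = 0.211). At the lower end stood NDUFB4, ATP5F1C, the rotating gamma subunit of ATP synthase, at -0.45 (SE 0.21, adjusted p = 0.228), and NDUFA4, a complex IV subunit once assigned to complex I, at -0.43 (SE 0.28, adjusted p = 0.394). The other used probes of NDUFB4 gave -0.29 and 0.62, so its place at this end rests on the probe taken. Quantile normalization ended this count of 0, with ATP5PB, SDHB and COX7A2L called higher, and so did leaving out lame R2_2, with ATP5PB and SDHB called higher.

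The near-zero median of the lame group was the mean of RNA samples that lay on opposite sides of the normal crossbred arrays. Lame R1 had a median log2 difference of 0.27 from the normal crossbred arrays, with 66 genes above 0 and 13 below. Lame R2 had a median of -0.35, with 10 genes above and 69 below. Over all genes the same medians were 0.05 and -0.16. For 41 of the 79 genes (51.9%) both normal crossbred arrays lay between the lame R1 arrays above and the lame R2 arrays below, an arrangement that 15.7% of all genes had. In 60 of the 79 (75.9%), both lame R2 arrays were the lowest of the 8, where 27.5% of all genes had this. The median SD between duplicate arrays was 0.10 for the 79 genes, and the median SD between the lame RNA samples was 0.45, with 0.13 and 0.35 over all genes. These counts describe RNA samples of 1 group and carry no test.

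**Figure D1:**
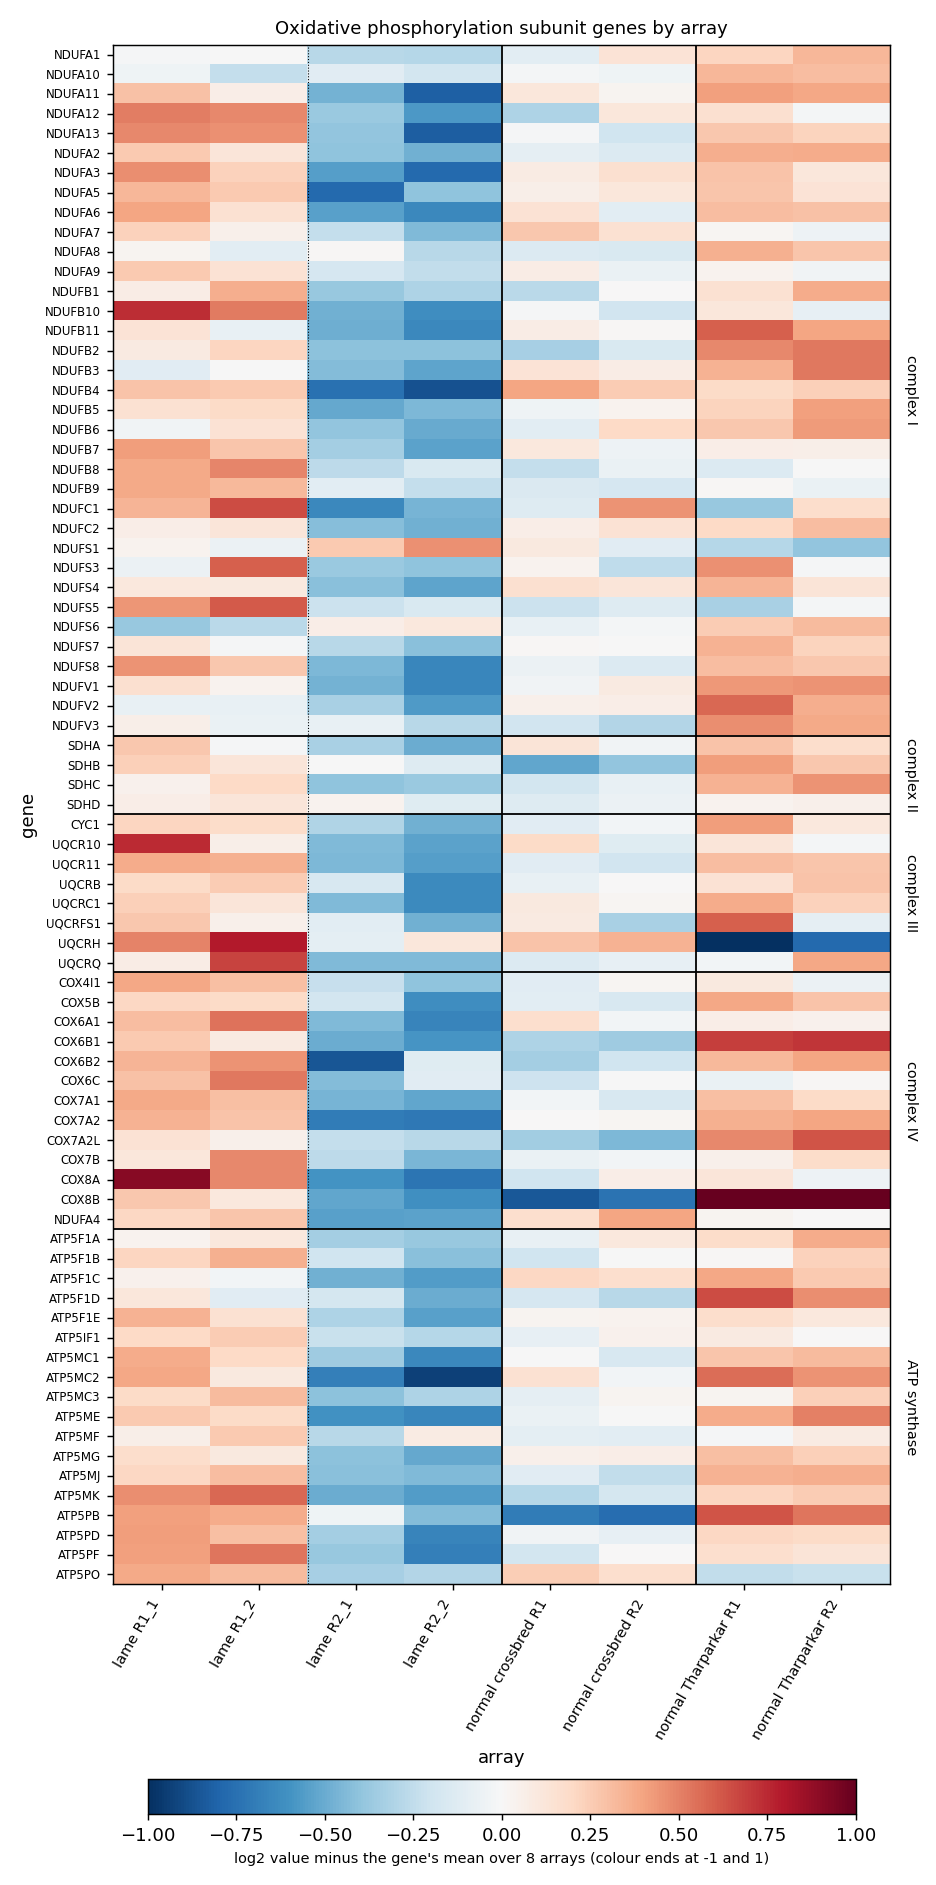
Colour gives the log2 value of each subunit gene listed at the left on each of the 8 arrays minus the gene's mean over the arrays, with lame, normal crossbred and normal Tharparkar arrays from left to right and complexes from top to bottom. The lame R1 columns are mostly red and the lame R2 columns mostly blue, while UQCRH is blue and COX8B dark red in the Tharparkar columns.

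Lame R1 was above lame R2 in 77 of the 79 subunit genes, by a median of 0.64, against 60.2% of all genes and a median of 0.18. Both R1 arrays lay above both R2 arrays for 74 genes (93.7%), where 48.5% of all genes did. COX8A, the widely expressed partner of COX8B, had the widest gap: it measured 5.78 and 5.35 on the lame R1 arrays, 4.27 and 4.14 on the lame R2 arrays, 4.67 and 4.94 on the normal crossbred arrays and 4.99 and 4.82 on the Tharparkar arrays. The lame arrays thus surrounded those of both normal groups, and a gap of 1.36 between the RNA samples stood beside log2 differences of 0.08 from normal crossbred and -0.02 from Tharparkar. NDUFB10, a membrane-arm subunit of complex I, had a gap of 1.18, and it measured 5.91 and 5.69 in lame R1, 4.69 and 4.55 in lame R2, and 5.16 and 4.98 in normal crossbred cows. NDUFA13, a complex I subunit also studied as a cell-death regulator under the name GRIM19, and NDUFB4 both had gaps of 1.08.

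The exceptions were both in complex I. NDUFS6, a zinc-binding accessory subunit, measured -0.31 and -0.20 on the lame R1 arrays and 0.14 and 0.18 on the lame R2 arrays. NDUFS1, the large iron-sulfur subunit next to the NADH site, measured 2.59 and 2.50 in lame R1 and 2.82 and 3.01 in lame R2. Their gaps were -0.42 and -0.37, with no overlap between the RNA samples, and NDUFA10 was next with 0.01. The other probe of NDUFS6 had a gap of 0.68, and the other used probes of NDUFS1 had -1.31, -0.87 and -0.79. By complex, the median gap was 0.59 in complex I, 0.38 in complex II, 0.68 in complex III, 0.75 in complex IV and 0.64 in ATP synthase. At its brightest probe, every measured gene of complexes II, III and IV and of ATP synthase was higher in lame R1. Dimmer probes could go the other way: SDHD had -1.15 at its other probe, and SDHA had -0.26 and -0.43 beside 0.34.

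The gap between the lame RNA samples changed with signal level over the whole array. When all 15137 genes were sorted by mean level into 10 classes of near equal size, the median gap was -0.69 in the dimmest class, -0.02 in class 4 and 0.52 in the brightest. Of the 79 subunit genes, 68 lay in the brightest 3 classes, where their median gap was 0.64 and that of all genes was 0.45. Probes of the same gene also parted: UQCRC1, a core subunit of complex III, had gaps of 0.72 and 0.33 at its brighter probes and -0.60 and -0.69 at its dimmer ones. Of the 161 probes of the subunit genes, 140 were higher in lame R1. Quantile normalization, which gives every array the same distribution, brought the median gap to 0.22 with 62 of 79 genes above 0, against 0.16 and 61.3% for all genes. The part of the level trend in the gap was not tested further. Without lame R2_2, the array that stands apart in brightness, the median gap was 0.59 with 75 genes above 0, against 0.21 and 62.9% for all genes. Normexp background correction gave 0.63 with 77 genes above 0, against 0.13 for all genes. Centring on the median of probes detected on every array gave 0.62 with 76, against 0.15. The mean of a gene's probes gave 0.61 with 74, against -0.01.

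**Figure D2:**
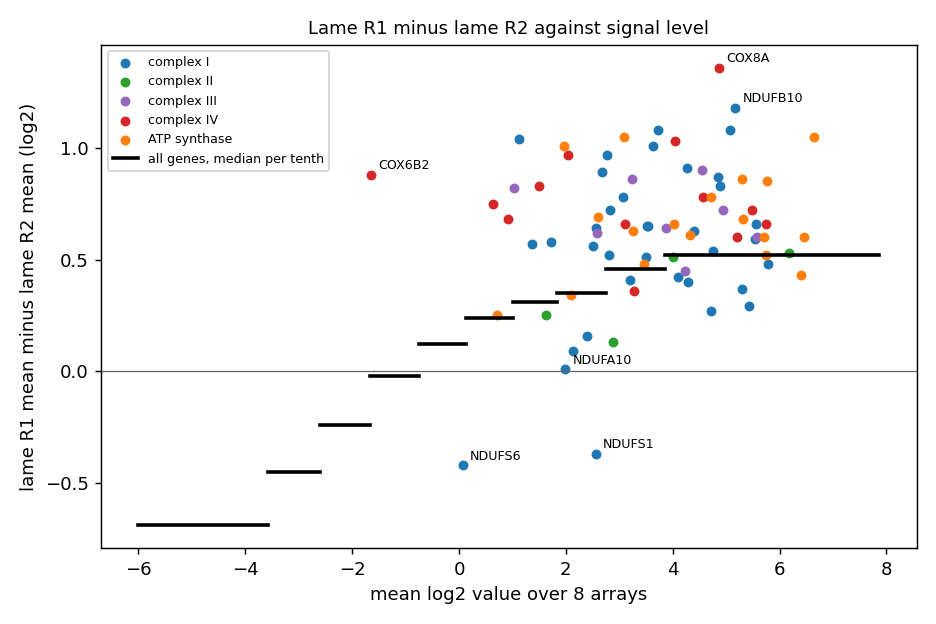
Each point is a subunit gene, coloured by complex, with its mean log2 value over 8 arrays on the horizontal axis and the lame R1 mean minus the lame R2 mean on the vertical axis, and black bars are medians of all genes in 10 level classes. The bars climb from -0.69 to 0.52, most points lie above their bar, and NDUFS1 and NDUFS6 lie below 0.

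The breed comparison set normal crossbred against normal Tharparkar cows. Subunit genes were mostly a little lower in the crossbred arrays: the median log2 difference was -0.28, against 0.01 over all genes, with 70 of 79 genes below 0 and 9 above. The test called 6 lower, where 6.91% of all genes were called lower, and 1 higher, where 11.7% were. The 7 called of 79 compare with 18.6% of all genes in either direction. The fit used 1 spread shared by all 8 arrays, so the gap between the lame RNA samples enters this test too. With the arrays of the normal groups alone, whose spread is that of duplicates, 35 of 79 were called, where 57.6% of all genes were. Both crossbred arrays lay below both Tharparkar arrays for 56 genes, where 40.5% of all genes did, and above them for 6, where 41.5% did.

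Lame crossbred against normal Tharparkar cows shares the Tharparkar arrays with that comparison and the lame arrays with the first, so it is no separate evidence. Its median log2 difference over the subunit genes was -0.36, against -0.01 over all genes, with 69 genes below 0 and 10 above. The test called 8 lower, where 10.8% of all genes were called lower, and 1 higher, where 12.5% were, together 9 of 79 against 23.3% of all genes. All lame arrays were below both Tharparkar arrays for 33 genes, where 25.2% of all genes were, and above them for 2, where 24.8% were. Taken apart, lame R2 had a median of -0.65 against Tharparkar with 77 genes below 0, and lame R1 had -0.01 with 39 above and 40 below.

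Bright genes as a class also had medians below 0 against Tharparkar cows. Over all genes of the brightest 3 level classes, the median log2 difference from Tharparkar was -0.13 for normal crossbred and -0.24 for lame cows, and over the 68 subunit genes there it was -0.26 and -0.37. With normexp in place of the scanner software's subtraction, the subunit medians were -0.05 for normal crossbred and -0.08 for lame cows against Tharparkar, above the medians of all genes, -0.10 and -0.15. With quantile normalization they were -0.13 and -0.12, below the 0.05 and -0.03 of all genes. Arrays of all groups were on both slides, and within slide 1 and slide 2 the medians were -0.27 and -0.24 for normal crossbred and -0.34 and -0.38 for lame cows against Tharparkar.

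**Figure D3:**
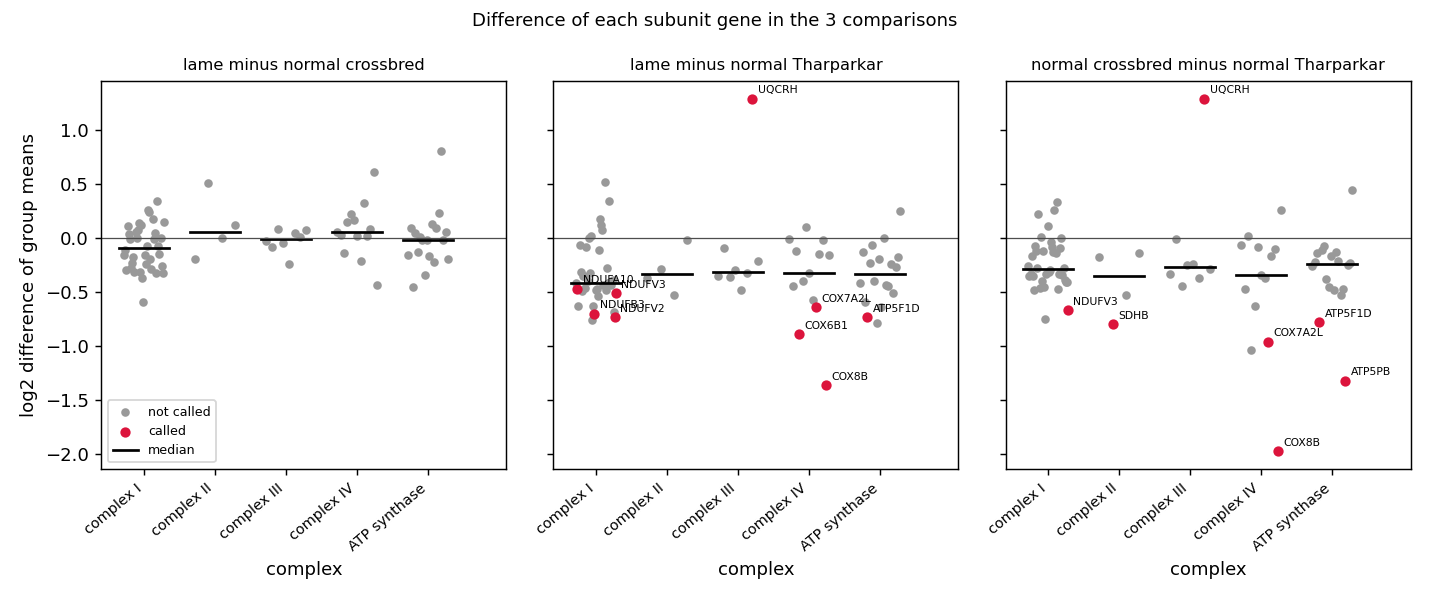
Each point is a subunit gene, with the log2 difference of group means on the vertical axis and the complex on the horizontal axis, in panels for lame minus normal crossbred, lame minus Tharparkar and normal crossbred minus Tharparkar. Red points were called at an adjusted p under 0.05 and black bars are medians: no point is red at the left, and UQCRH at 1.29 and COX8B at -1.36 and -1.97 stand furthest out in the other panels.

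The calls against Tharparkar cows changed with the treatment of duplicate arrays. With duplicates averaged, or with the RNA sample as a random block, limma called 0 of 79 genes in each comparison. Few genes of any kind were called by these fits. Over all genes the averaged fit called 1.1% for lame against normal crossbred and 3.51% for lame against Tharparkar cows. It called 2.46% for normal crossbred against Tharparkar cows, and the block fit called 0.152%, 1.35% and 0.634% in the same order. At an unadjusted p under 0.05 the averaged fit had 0, 1 and 1 subunit genes in that order, and the block fit had 0, 3 and 4. Leaving out either Tharparkar array ended every call against Tharparkar, and leaving out either normal crossbred array ended every call between the normal groups. Leaving out either normal crossbred array, or lame R2_1, left COX8B and UQCRH as the members called in lame against Tharparkar cows. These were also the 2 called there with normexp. With the slide as a replicate block, 4 of the 9 were called in lame against Tharparkar cows (ATP5F1D, COX8B, NDUFV2 and UQCRH) and 6 of the 7 between the normal groups, all but ATP5F1D.

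In complex I, 1 of 36 genes fell in normal crossbred against Tharparkar cows and 4 fell in lame against Tharparkar cows, with medians of -0.29 and -0.41. Over all genes 6.91% and 10.8% were called lower, so the count in complex I was no higher than the share of all genes between the normal groups and near it for lame cows. NDUFV3, a small accessory subunit of the NADH-binding arm, was called in both. It measured 2.46, 2.34, 2.33 and 2.13 in lame cows, 2.21 and 2.11 in normal crossbred cows and 2.87 and 2.78 in Tharparkar cows. All 6 crossbred arrays lay below the Tharparkar ones, with log2 differences of -0.51 (SE 0.14, adjusted p = 0.0402, limma) for lame and -0.67 (SE 0.17, adjusted p = 0.0314) for normal crossbred cows. NDUFV2, the iron-sulfur partner of the NADH-binding subunit, measured 5.22, 5.22, 4.97 and 4.73 in lame cows, 5.35 and 5.36 in normal crossbred cows and 5.87 and 5.66 in Tharparkar cows. It fell by 0.73 on the log2 scale in lame against Tharparkar cows (SE 0.18, adjusted p = 0.0279), and normal crossbred cows lay between, with -0.41 (adjusted p = 0.226). The other probe of NDUFV2 gave -0.32 for lame against Tharparkar cows, and the call was lost with the mean of its probes.

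NDUFB3, an accessory subunit of the membrane arm, measured 3.98, 4.09, 3.66 and 3.57 in lame cows, 4.23 and 4.17 in normal crossbred cows and 4.44 and 4.62 in Tharparkar cows. It fell by 0.70 in lame against Tharparkar cows (SE 0.19, adjusted p = 0.0341), and the 3 groups did not overlap. NDUFA10, an accessory subunit related to nucleoside kinases, measured 1.95, 1.75, 1.88 and 1.81 in lame cows, 1.97 and 1.95 in normal crossbred cows and 2.32 and 2.30 in Tharparkar cows, a fall of 0.47 in lame against Tharparkar cows (SE 0.13, adjusted p = 0.0374). It had almost no gap between the lame RNA samples and its other probe gave -0.49. Among the catalytic subunits, NDUFV1, which binds NADH and the flavin, had -0.68 (adjusted p = 0.0898) in lame against Tharparkar cows. NDUFS1 had 0.52 (adjusted p = 0.0815) and NDUFS5, an accessory subunit, 0.34 (adjusted p = 0.40), the highest of the complex.

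In complex II, SDHB fell in normal crossbred against Tharparkar cows. Beside the lame and normal crossbred values above, it measured 2.04 and 1.89 in Tharparkar cows. The log2 difference was -0.80 (SE 0.18, adjusted p = 0.0215, limma), a 1.74-fold lower signal in normal crossbred cows. Lame cows, with -0.29 (SE 0.15, adjusted p = 0.217), were not called against Tharparkar. SDHA, the flavin subunit that oxidises succinate, measured 6.44, 6.16, 5.85 and 5.68 in lame cows, 6.30 and 6.14 in normal crossbred cows and 6.46 and 6.35 in Tharparkar cows. SDHD, a membrane anchor, was nearly level at its brightest probe, with 2.94, 3.0, 2.91 and 2.76 in lame cows, 2.75 and 2.82 in normal crossbred cows and 2.91 and 2.93 in Tharparkar cows. For both genes the lame arrays overlapped those of normal crossbred cows.

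Complex III held the called gene that rose. UQCRH, the acidic hinge subunit at the docking site of cytochrome c, measured 4.37, 4.67, 3.78 and 3.99 in lame cows, 4.16 and 4.22 in normal crossbred cows and 2.71 and 3.10 in Tharparkar cows. Every crossbred array exceeded both Tharparkar arrays. The log2 difference from Tharparkar was 1.29 in both, with SE 0.27 and adjusted p = 0.0138 (limma) for lame and SE 0.31 and adjusted p = 0.0273 for normal crossbred cows, or 2.45-fold and 2.44-fold higher. It rests on 1 probe. At their brightest probes, the other 7 genes of the complex were below 0 in both comparisons with Tharparkar cows and none passed the test. CYC1, the haem-bearing cytochrome of the complex, had -0.35 for lame and -0.33 for normal crossbred cows, UQCRC1 -0.48 and -0.24, and UQCRFS1, the Rieske iron-sulfur protein, -0.32 and -0.37. The dimmest UQCRFS1 probe went the other way, with 1.48 and 0.93 (adjusted p = 0.00836 and 0.0705 in a limma fit of single probes). The remaining UQCRFS1 probe gave -0.14 and 0.02. The other UQCRC1 probes gave -0.91, -0.91 and -0.89 for lame against Tharparkar cows (adjusted p = 0.0364, 0.0493 and 0.015 in the limma fit of single probes). For normal crossbred against Tharparkar cows they gave -1.51, -1.40 and -0.59 (adjusted p = 0.0121, 0.0216 and 0.0956 in that fit).

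Complex IV, cytochrome c oxidase, held the gene with the widest difference between the normal groups among the 79 genes. COX8B measured 0.91, 0.75, 0.12 and 0.03 in lame cows, -0.21 and -0.10 in normal crossbred cows and 1.82 and 1.81 in Tharparkar cows. The 3 groups did not overlap, and lame R1 lay above lame R2. Against Tharparkar the log2 difference was -1.36 (SE 0.27, adjusted p = 0.0129, limma) in lame and -1.97 (SE 0.31, adjusted p = 0.0064) in normal crossbred cows, a 2.56-fold and a 3.91-fold lower signal, from 1 probe. Its widely expressed partner COX8A had -0.02 and -0.10.

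COX7A2L, a protein that joins complexes III and IV in supercomplexes, measured 3.41, 3.32, 3.03 and 2.99 in lame cows, 2.92 and 2.82 in normal crossbred cows and 3.75 and 3.90 in Tharparkar cows. Its groups did not overlap either, and it fell by 0.64 (SE 0.17, adjusted p = 0.035, limma) in lame and by 0.96 (SE 0.20, adjusted p = 0.0161) in normal crossbred against Tharparkar cows. Its other probe gave -0.33 and -0.25, with adjusted p = 0.413 and 0.628 in a fit of single probes, and with the mean of its probes COX7A2L was called in neither comparison. COX6B1, on the intermembrane face near the cytochrome c site, measured 5.75, 5.58, 4.99 and 4.90 in lame cows, 5.18 and 5.13 in normal crossbred cows and 6.18 and 6.20 in Tharparkar cows. It fell by 0.89 (SE 0.26, adjusted p = 0.0476) in lame against Tharparkar cows. For normal crossbred against Tharparkar the difference was -1.04 with adjusted p = 0.053, so it was not called there. The other COX6B1 probes gave -0.35 and -0.26 for lame against Tharparkar cows (adjusted p = 0.494 and 0.68 in the fit of single probes), and with the mean of its probes the call was lost. COX4I1, the nuclear subunit that carries the ATP-binding regulation of the enzyme, measured 6.13, 6.04, 5.51 and 5.34 in lame cows, 5.63 and 5.76 in normal crossbred cows and 5.84 and 5.68 in Tharparkar cows, and the lame arrays spanned those of the other groups.

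In ATP synthase, ATP5F1D, the delta subunit of the central stalk, was called in both comparisons with Tharparkar cows. It measured 2.21, 1.98, 1.92 and 1.60 in lame cows, 1.93 and 1.82 in normal crossbred cows and 2.75 and 2.56 in Tharparkar cows. All crossbred arrays were lower, by 0.73 on the log2 scale for lame (SE 0.19, adjusted p = 0.032, limma) and by 0.78 for normal crossbred cows (SE 0.22, adjusted p = 0.0468), and its other probe gave -0.87 and -0.99. ATP5PB measured 3.88 and 3.79 in Tharparkar cows and fell by 1.32 in normal crossbred against Tharparkar cows (SE 0.29, adjusted p = 0.0206), a 2.49-fold lower signal. Its other probe gave -0.23 for the same comparison, and the call was lost with the mean of the probes. ATP5PO, which ties the stalk to the catalytic head, stood at the upper end with 0.44 (adjusted p = 0.326).

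None of the main genes of the catalytic head and the proton ring was called. ATP5F1A, the alpha subunit, had log2 differences of -0.42 for lame and -0.26 for normal crossbred against Tharparkar cows, and ATP5F1B, the catalytic beta subunit, had -0.13 and -0.22. ATP5MC1, ATP5MC2 and ATP5MC3 are separate genes for the same mature ring protein. They had -0.40, -0.79 and -0.19 in lame against Tharparkar cows, and the SE of 0.37 for ATP5MC2 reflects lame values of 7.04, 6.75, 5.97 and 5.72 beside 7.21 and 7.10 in Tharparkar cows. ATP5IF1, the inhibitor that stops the enzyme from running backwards, had 0.01 for lame against normal crossbred, -0.06 for lame against Tharparkar and -0.07 for normal crossbred against Tharparkar cows.

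**Figure D4:**
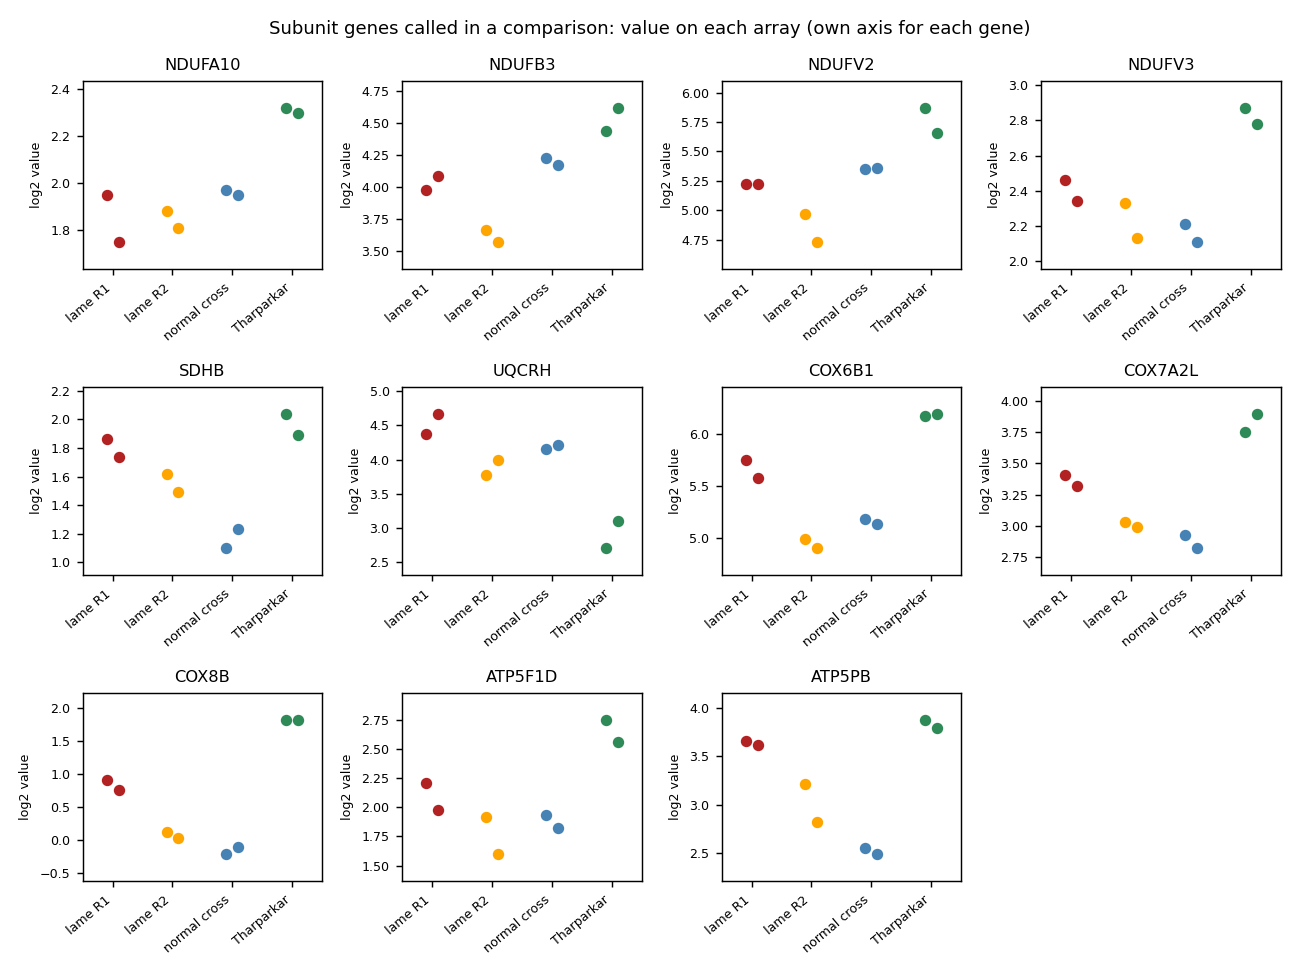
Points give the log2 value on each array for the 11 subunit genes called in any comparison, with lame R1, lame R2, normal crossbred and Tharparkar duplicates from left to right and an own vertical axis for each gene. UQCRH has its lowest points in Tharparkar cows, the other genes have their highest there, and COX8B spans from -0.21 to 1.82.

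Several isoforms of complex IV are known from particular tissues. Besides COX8B, the muscle isoform COX7A1 and the testis isoform COX6B2 were above background on all 8 arrays. COX7A1 measured 1.87, 1.79, 1.02 and 0.97 in lame cows, 1.46 and 1.33 in normal crossbred cows and 1.79 and 1.68 in Tharparkar cows, and its widely expressed partner COX7A2 measured 4.39, 4.33, 3.34 and 3.33, against 4.05 and 4.06, and 4.40 and 4.44. Both had the lame arrays on either side of the normal crossbred ones, with gaps of 0.83 and 1.03 between the lame RNA samples. COX6B2 measured -1.30, -1.19, -2.50 and -1.76 in lame cows, -1.98 and -1.84 in normal crossbred cows and -1.32 and -1.25 in Tharparkar cows, and no comparison was called. The other COX6B2 probe was well above background on 3 of the 8 arrays and was not used. The muscle isoform COX6A2, with 2 probes, and the testis isoform COX7B2, with 1, were well above background on 0 of the 8 arrays. COX4I2, the lung and hypoxia isoform, and NDUFA4L2, the hypoxia-linked paralog of NDUFA4, were above background on 1 array, lame R2_2, and were not tested.

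Probes of a gene did not always tell the same story. In 13 of the 48 genes with 2 or more probes, the log2 differences of the probes lay over 1 apart in some comparison. NDUFS1 had the widest spread: for normal crossbred against Tharparkar cows its brightest probe gave 0.33, others went down to -0.98, and 1 probe was well above background on every crossbred array and on neither Tharparkar array. At that probe the signal was at least 3.05-fold higher in lame and at least 2.03-fold higher in normal crossbred than in Tharparkar cows. UQCRFS1 spanned -0.37 to 0.93, UQCRC1 -1.51 to -0.24, NDUFV1 -1.49 to -0.41, SDHD -1.32 to -0.14, ATP5F1B -0.99 to 0.04 and NDUFB4 -0.57 to 0.45 in the same comparison. In lame against Tharparkar cows, ATP5F1A spanned -0.91 to 0.23, ATP5MJ, a small membrane subunit of ATP synthase, -0.44 to 0.64, and NDUFA9, an accessory subunit near the quinone site, -1.02 to 0.00. In lame against normal crossbred cows, SDHA spanned -0.19 to 0.89 and NDUFB4 -0.59 to 0.62. UQCRH, COX8B, SDHB, NDUFV3 and NDUFB3 have 1 probe each, so no second probe bears on them.

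The genes around the respiratory chain were set beside it. The shift against Tharparkar cows was shared in sign by the citric acid cycle and pyruvate dehydrogenase genes, which feed the chain: their median was -0.39 for lame and -0.34 for normal crossbred cows over 18 genes. IDH3A, of the NAD-linked isocitrate dehydrogenase, fell in both, by 1.01 (adjusted p = 0.00738, limma) and 0.95 (adjusted p = 0.0177), and SUCLG1, of succinyl-CoA ligase, fell in lame cows by 0.67 (adjusted p = 0.0302). These calls are 11.1% and 5.56% of the 18 genes, near the 10.8% and 6.91% of all genes called lower. The 75 measured mitochondrial ribosomal proteins had medians of -0.27 and -0.28, with 0 higher and 8 lower for lame and 1 higher and 5 lower for normal crossbred cows, which is near the 10.8% and 6.91% of all genes called lower. The 76 cytosolic ribosomal proteins had -0.15 and -0.16, with 3 and 1 lower, below those shares.

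Assembly factors, carriers and regulators were mixed. Of 51 assembly factors 40 were tested, and 4 were higher and 3 lower in lame against Tharparkar cows, and 2 higher and 4 lower in normal crossbred against Tharparkar cows. These are 17.5% and 15.0% of the tested assembly factors, below the 23.3% and 18.6% of all genes called in either direction. UQCC2, which helps build complex III, was lower in both, by 0.73 (adjusted p = 0.0197) and 0.98 (adjusted p = 0.0135), and COX18, which inserts a complex IV subunit into the membrane, was higher in lame cows by 1.27 (adjusted p = 0.00372). In lame against normal crossbred cows 3 assembly factors were called higher, or 7.5%, where 9.61% of all genes were called in either direction. They were SCO2, a copper chaperone of complex IV, by 1.44 (adjusted p = 0.00699), DMAC1, for the membrane arm of complex I, by 1.06 (adjusted p = 0.05 after rounding), and ATPAF2, for ATP synthase, by 0.89 (adjusted p = 0.0249). Of 19 carriers and exchangers, 17 were tested. In lame against normal crossbred cows 11.8% of these were called, where 9.61% of all genes were. COQ6, of coenzyme Q synthesis, was higher by 0.73 (adjusted p = 0.0233) and COQ7, of the same pathway, was lower, with -0.87 (adjusted p = 0.0228). Against Tharparkar cows, 2 carriers were higher and 5 lower in lame cows and 1, COQ9, was higher in normal crossbred cows. These are 41.2% and 5.88% of the carriers, where 23.3% and 18.6% of all genes were called in either direction.

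Of 20 regulators of mitochondrial biogenesis, 16 were tested. The test called 6.25% of them for lame against normal crossbred, 12.5% for lame against Tharparkar and 18.8% for normal crossbred against Tharparkar cows. Over all genes these shares were 9.61%, 23.3% and 18.6%. TFB1M, which methylates the mitochondrial ribosomal RNA, measured 2.64, 2.37, 2.53 and 2.62 in lame cows, 3.16 and 3.36 in normal crossbred cows and 0.91 and 1.20 in Tharparkar cows. It was called in every comparison, with log2 differences of -0.72 for lame against normal crossbred (adjusted p = 0.0325, limma), 1.49 for lame against Tharparkar (adjusted p = 0.00112) and 2.21 for normal crossbred against Tharparkar cows (adjusted p = 0.00059). TFB2M, a transcription factor of mitochondrial DNA, was higher against Tharparkar by 0.88 in lame (adjusted p = 0.00332) and 0.74 in normal crossbred cows (adjusted p = 0.0132). GABPA, a nuclear factor that acts on many subunit promoters, was higher by 0.53 in normal crossbred against Tharparkar cows (adjusted p = 0.0422). The medians of the regulators were 0.04 and 0.05 against Tharparkar cows, beside the negative medians of the subunits.

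The gap between the lame RNA samples was shared by other housekeeping lists. It had a median of 0.60 in cytosolic ribosomal proteins, with 75 of 76 higher in lame R1, 0.57 in mitochondrial ribosomal proteins, with 69 of 75, and 0.52 in assembly factors, with 36 of 40. It was smaller in the citric acid cycle list, with 0.44 and 11 of 18, in regulators, with 0.30 and 9 of 16, and in carriers, with 0.22 and 13 of 17.

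**Figure D5:**
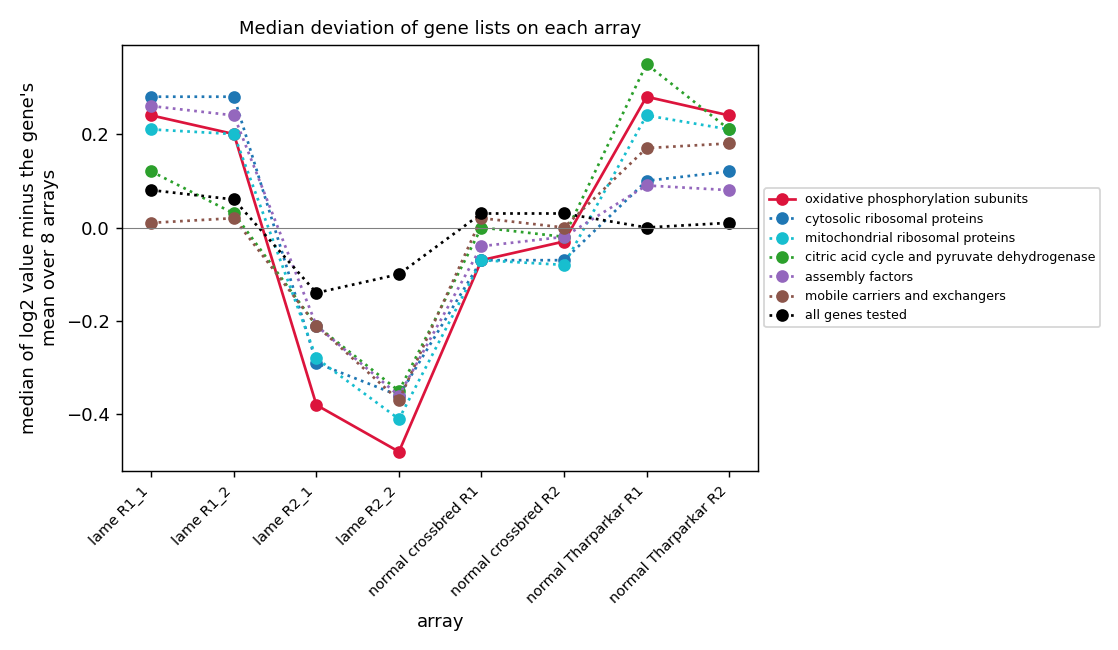
Points give, for each array, the median over a gene list of the log2 value minus the gene's mean over the 8 arrays, for the oxidative phosphorylation subunits (red), 5 other lists and all genes (black). The subunits sit at 0.24 and 0.20 on the lame R1 arrays, -0.38 and -0.48 on the lame R2 arrays, -0.07 and -0.03 on the normal crossbred arrays and 0.28 and 0.24 on the Tharparkar arrays.

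Markers of blood cell types moved with the same comparisons. Defining markers of T cells, B cells and monocytes were above background in all groups, as the labelled tissue has them. Between normal crossbred and Tharparkar cows, 11 of 13 T cell markers and 4 of 9 NK and cytotoxic markers were called higher, with medians of 0.98 and 1.39, where 11.7% of all genes were called higher. Among them KLRD1 measured -6.19 and -5.47 on the Tharparkar arrays, where subunit probes as dim as this were not above background. The mean level of the T cell list was 1.17 to 1.48 on the lame arrays, 1.91 to 2.0 on the normal crossbred arrays and 0.78 to 0.83 on the Tharparkar arrays, and that of the NK list was 0.07 to 1.20, 1.34 to 1.37 and 0.00 to 0.13. The B cell list was at 3.96 to 4.56, 4.58 to 4.61 and 4.66 to 4.83, and the monocyte list at 1.31 to 1.99, 0.98 and 1.35 to 1.37. Monocyte markers did not move together: in lame against normal crossbred cows, 8 of 10 were above 0 and 2 below. C1QA, C1QB, C1QC and CSF1R were called higher, by 1.33, 1.55, 1.38 and 1.0, where 9.61% of all genes were called in either direction. CD14 was called lower, with -1.56 (adjusted p = 0.0229, limma), and CD68 had -0.7 (adjusted p = 0.0877). Against Tharparkar cows, C1QA, C1QB and CSF1R were called higher and CD14 lower in lame cows. BCL11B, CD79B, PAX5, CD22 and FCRLA were not measured.

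Of 9 granulocyte markers, 5 were called lower in lame cows against normal crossbred cows, where 9.61% of all genes were called in either direction, and 5 against Tharparkar cows, where 10.8% were called lower. Others lay near or above 0: S100A9 had 0.20 and 0.37, S100A12 -0.11 and 0.20, and MPO, which was called lower against normal crossbred cows, had 0.36 against Tharparkar cows. The list had mean levels of 0.34 to 0.64 on lame, 2.18 to 2.28 on normal crossbred and 2.52 to 2.59 on Tharparkar arrays. The platelet list stood at 0.88 to 1.65, 0.71 to 0.80 and -0.34 to -0.20, and the erythroid list at -0.20 to 0.34, -0.70 to -0.62 and -0.78 to -0.64. Between lame R1 and lame R2, the median gap was -1.06 for NK and cytotoxic markers, -0.70 for monocytes, -0.61 for erythroid cells, -0.49 for platelets, -0.12 for T cells, 0.15 for granulocytes and 0.48 for B cells. The part of cell composition in the subunit values was not tested.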

How the data were processed

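The authors deposited 1 scanner table per array of an Agilent 1-colour bovine design, with the intensity of each spot. Per the file headers the processed intensity was background-subtracted, with no scaling between arrays, by Feature Extraction 12.0.3.1 (11.5.1.1 per the submitters' processing notes). They also deposited log2 values that followed the processed values after both the 75th percentile of the array and the probe's median were taken off (correlation at least 0.999995), with column medians of 0, -0.12, 0, 0.88, -0.07, -0.12, 0.02 and 0.09 (lame R1_1, R1_2, R2_1, R2_2, normal crossbred, Tharparkar), used as an alternative.

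Here, the 75th percentile of an array was subtracted from its log2 processed intensities for 43653 probes, leaving out 35 with an outlier spot (0 were saturated). Accessions named 27054 probes through a RefSeq table of ARS-UCD2.0. The brightest kept probe stood for a gene. One fit of 3 group means over 15137 genes used limma 3.58.1 in R 4.3.3 (lmFit, eBayes, 2-sided, 5 residual and 2.34 prior degrees of freedom) with Benjamini-Hochberg adjustment. The fit was tested on simulated data. A lower bound of a fold sets the brighter group against the higher of the dim probe's signal and the lowest signal well above background on each array. Normexp used the median signal columns, since the files hold no mean signal. Precision is limited by the number of arrays.

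Members, lists and tests were chosen with earlier results of these data known. Named genes are those called, a core set per complex, tissue isoforms with partners, the 3 highest and lowest in each comparison and between the lame RNA samples, genes whose probes differ by over 1, and the ATP5MC genes. In the lists around the chain, names were chosen after their values were seen. Some measured genes are counted but not reported by name here.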

Additional observations from a re-analysis of the deposited data

How the results depend on the processing

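Counts of called subunit genes depended on how arrays were weighed and on the probe taken for a gene. For lame against normal crossbred cows (0 higher and 0 lower), quantile normalization gave 3 higher and 0 lower, single probes 1 higher and 1 lower, lame R1 alone 29 and 1, lame R2 alone 1 and 36 (median -0.35), array weights 25 and 1, and leaving out an array 0 to 2 higher. For lame against Tharparkar cows (1 higher and 8 lower), normexp gave 1 higher and 1 lower, quantile 2 and 7, no filter on dim probes 0 and 0, single probes 3 and 18, the replicate block of the slide 1 higher and 3 lower, duplicates averaged 0 and 0, the random block 0 and 0, lame R1 alone 13 and 15 (median -0.01), lame R2 alone 2 and 63, the arrays of these groups alone 1 and 1, array weights 9 and 18, and leaving out an array 0 to 1 higher and 0 to 10 lower. For normal crossbred against Tharparkar cows (1 higher and 6 lower), normexp gave 1 higher and 2 lower (median -0.05), quantile 3 and 8 (median -0.13), no filter 0 and 1, single probes 1 and 15, duplicates averaged 0 and 0, the random block 0 and 0, lame R1 alone 3 and 34, lame R2 alone 2 and 25, the arrays of these groups alone 2 and 33, array weights 3 and 36, and leaving out an array 0 to 1 higher and 0 to 7 lower; within slide 2 the median was -0.24. The replicate block changed no call of lame against normal crossbred cows and gave 1 and 5 between the normal groups; arrays of 1 slide deviated together with correlations of 0.04 to 0.238. When probes of a gene were averaged, 1 higher and 10 lower were called for lame and 1 and 9 for normal crossbred against Tharparkar cows, but 6 of the 9 and 5 of the 7 calls were kept: COX6B1, COX7A2L and NDUFV2 were lost in the first comparison and ATP5PB and COX7A2L in the second, while NDUFV1 and UQCRC1 were among those added in both. Fits on lame R1 or R2 alone rest on duplicates, so their spread is technical. The share of all genes called moved as well. For lame against normal crossbred cows it was 47.3% with lame R1 alone, 46.2% with lame R2 alone and 48.3% with array weights. For lame against Tharparkar cows these shares were 55.3%, 58.2% and 56.0%. Between the normal groups they were 57.8%, 47.3% and 62.4%, and 57.6% with the arrays of these groups alone.

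Some single genes not called in the main fit were called in the opposite direction under another setting. For lame against normal crossbred cows these were ATP5MC1 with 0.37 (lame R1 alone), COX7A1 -0.40, COX8A -0.60 and NDUFB10 -0.45 (lame R2 alone). For lame against Tharparkar cows they were COX4I1 0.32 and COX8A 0.66 (lame R1 alone), COX8A 0.56 (array weights), NDUFA9 -0.51 (mean of probes) and NDUFB10 -0.57 (lame R2 alone). A change of sign without a call is not listed. Of 2736 values of single genes, 2297 were classed as the same, a class that can hold uncalled values of changed sign. The cause was not tested where no sample or gene was left out. The random block and averaged fits rest on 4 RNA samples. The within-slide values and those of the lame gap were added after seeing the data.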
